A study of Mus musculus with 6 samples.

Results

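Microtubule-associated and growth cone genes of young neurons were examined in neural progenitor cells (NPCs) with and without Ybx1. The set holds 10 of the 51733 gene symbols in the deposited tables, taken by name from the doublecortin family (Dcx, Dclk1), structural microtubule-associated proteins (Map1b, Map2, Mapt), stathmins (Stmn1, Stmn2, Stmn3) and growth cone proteins (Gap43, Crmp1). All 10 had counts in every library and passed the filter on low levels. RNA-seq had been performed on Sox2-positive cells sorted by fluorescence from mouse neural tubes at E13.5, to learn how loss of Ybx1 affects gene expression in NPCs. The 3 control libraries, labelled wildtype, came from siblings of the knockout embryos. The 3 Ybx1-KO libraries came from embryos homozygous for the Ybx1 tm1Ley allele. Both groups are labelled C57BL/6 and, per the study's methods, carried the Sox2-eGFP reporter (Sox2 tm1Hoch), mice of both sexes being used. The knockout is constitutive, so cells outside the neural tube also lack the gene. Libraries are named here control 1 to 3 and Ybx1-KO 1 to 3. The titles of controls 1 and 2 carry the same first number, as do those of Ybx1-KO 1 and 2, and no source used here says what that number marks. If it marks a litter or an embryo, the libraries of a group are not all independent. No label states that each library came from its own embryo, so p-values measure the spread between these libraries, which may be technical in part.

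Microtubules are polymers of tubulin that grow and shrink at their ends, and a young neuron depends on them to migrate and to extend an axon. Dcx and the related kinase Dclk1 bind and stabilise microtubules in migrating neurons, Map1b, Map2 and Mapt (tau) bind along them in axons and dendrites, and stathmins hold free tubulin and favour disassembly. Gap43 is a membrane protein of the growth cone, the motile tip of the axon, and Crmp1 belongs to the collapsin response mediator proteins, which bind tubulin and act in semaphorin signalling. Most of these genes are switched on as progenitors become neurons, whereas Stmn1 is also abundant in dividing cells.

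The promoters of Dclk1, Dcx and Map2 are shown because these are the genes whose counts relative to Map1b did not overlap between the groups. Each stretch is the part of the 250 bases before a RefSeq start site (GRCm38.p6) that lies outside annotated exons, written 5′ to 3′ on the gene's strand. Capitals mark CCAAT, the core of the Y-box element after which Ybx1 is named. Dclk1 is on the plus strand at chr3:55242114-55242363, Dcx on the minus strand at chrX:143933312-143933469 and Map2 on the plus strand at chr1:66175079-66175272.
Dclk1: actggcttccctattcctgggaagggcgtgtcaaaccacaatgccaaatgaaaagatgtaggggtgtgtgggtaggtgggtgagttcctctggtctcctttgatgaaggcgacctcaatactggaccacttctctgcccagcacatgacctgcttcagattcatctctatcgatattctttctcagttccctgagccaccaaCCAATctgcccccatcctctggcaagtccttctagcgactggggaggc
Dcx: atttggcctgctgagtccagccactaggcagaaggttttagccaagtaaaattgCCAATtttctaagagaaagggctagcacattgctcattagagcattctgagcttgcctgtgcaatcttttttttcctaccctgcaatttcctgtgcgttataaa
Map2: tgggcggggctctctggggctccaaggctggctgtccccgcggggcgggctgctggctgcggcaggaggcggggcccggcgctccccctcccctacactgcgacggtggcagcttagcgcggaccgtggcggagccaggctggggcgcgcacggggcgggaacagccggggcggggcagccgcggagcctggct
CCAAT lay 48 bases before the start site shown for Dclk1 and 196 bases before that shown for Dcx. Another start site of Dclk1, at chr3:55461728, had 0 matches of CCAAT in its window. Another of Dcx, at chrX:143933124, had no match before the start. The letters CCAAT were searched on both strands, as were the E-box letters CANNTG, which read the same on both and can share bases with CCAAT. RefSeq entries were found for 6 of the 10 genes, with 9 start sites among them, and none was found for Mapt, Stmn1, Stmn2 and Gap43. CCAAT was in 3 of the 9 windows of 250 bases before and 50 after the start, all of Dcx or Dclk1, against 37.4% of 32851 promoters. CANNTG was in 5 of the 9 windows, against 72.3% of those promoters. These are matches of letters and not binding sites.

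The libraries were checked first. The tables held between 4743279 counts on genes in Ybx1-KO 3 and 23883542 in control 2, and levels are given in CPM, counts scaled to library size. The smallest amount taken as shown, 3 counts, was worth 0.126 CPM in the deepest library and 0.632 CPM in the shallowest. These 2 values are on raw totals, whereas levels of genes are in CPM after TMM normalization. Ybx1 itself, the deleted gene, was at 239, 531 and 306 CPM in the controls and at 126, 55.4 and 9.66 CPM in Ybx1-KO 1 to 3. Every Ybx1-KO library was below every control, and the knockout libraries still held reads on the gene. Ybx1-KO 3 stood apart from the rest. It had 59.5% of its tallied read pairs outside genes and 7.22% on them. On raw totals it had 4282 CPM on 1356 olfactory receptor genes against at most 84.8 CPM in any other library. After TMM normalization these were 2886 CPM and at most 93.0 CPM. Tubb3, the tubulin of young neurons, ran from 221 to 570 FPKM (fragments scaled to exon length and library size) over the 6 libraries and Sox2 from 8.49 to 21.5 FPKM, so libraries labelled Sox2-positive held abundant neuronal transcripts in both groups. Fewer cells of a type and less RNA per cell cannot be told apart in these bulk samples.

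None of the 10 genes was called between Ybx1-KO and control NPCs with the limits of 1.5 on the fold change and 0.05 on the adjusted p, and neither was any of the 21330 genes tested (0.0% in each direction, smallest adjusted p = 0.167 in the quasi-likelihood test of edgeR, adjusted by Benjamini-Hochberg). At an unadjusted p below 0.05 the same test listed 1 of the 10 genes, Dclk1, as lower in Ybx1-KO NPCs, against 4.26% of all genes tested, and 0 as higher, against 6.96%. The groups did not overlap for 1 gene, again Dclk1, against 8.16% of genes lower without overlap over all tested and 13.3% among the 1322 genes with a mean of at least 100 CPM, the range in which all 10 genes lay. For 0 of the 10 genes were all Ybx1-KO libraries above all controls, against 4.99% of all genes tested. The log2 fold change was negative for 9 genes and positive for Stmn1, against 38.7% negative over all genes tested and 64.4% among those of at least 100 CPM. The median over the 10 genes was -0.28, that over all genes tested 0.31 and that over genes of at least 100 CPM -0.20. Of the genes tested, 7234 passed the filter on low levels through Ybx1-KO alone and 951 through control alone. Values over all genes tested are therefore not a neutral baseline. Without Ybx1-KO 3 and with the filter reapplied, the median was -0.016 over the 10 genes and 0.013 over all genes tested, and on the same 21330 genes it was -0.052 and -0.066.

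**Figure D1:**
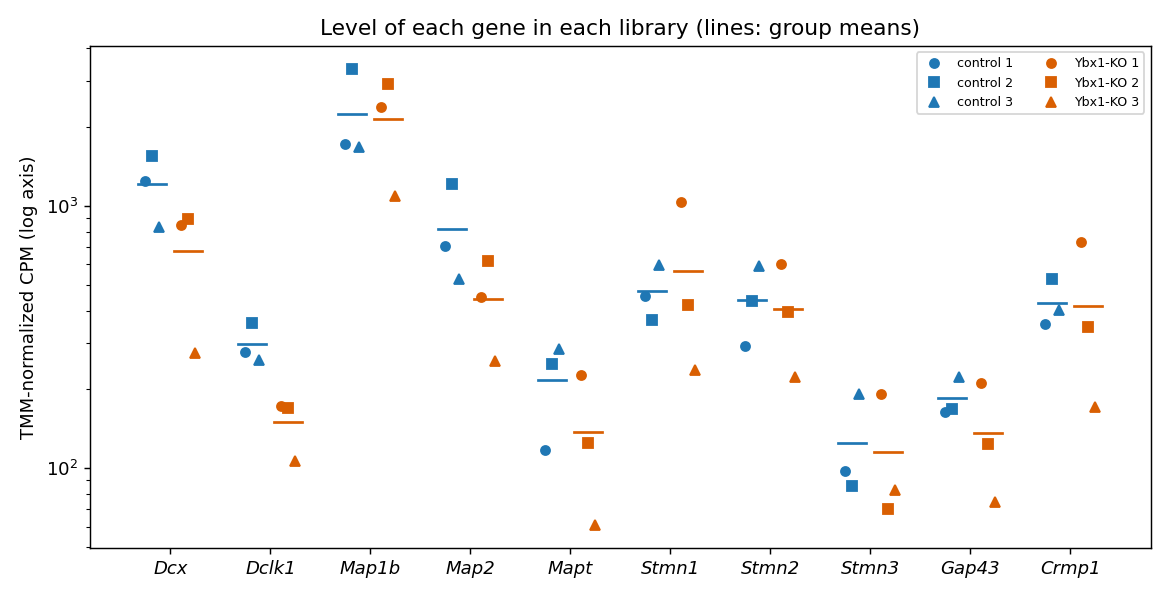
Level of each of the 10 genes in each library, as TMM-normalized CPM on a log axis, with control libraries in blue, Ybx1-KO libraries in orange and arithmetic group means as lines. Dclk1 is the gene whose 3 Ybx1-KO points (107 to 173 CPM) all lie below its 3 control points (259 to 359 CPM), and Ybx1-KO 3 is the lowest point for 9 genes.

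Dclk1 encodes a microtubule-binding kinase of the doublecortin family (chr3:55242364-55539068 of GRCm38, plus strand). Its level was 277, 359 and 259 CPM in controls 1 to 3 and 173, 169.8 and 107 CPM in Ybx1-KO 1 to 3. The controls were all above the Ybx1-KO libraries, and Ybx1-KO 1 and 2 lay close together with Ybx1-KO 3 below them. The means were 298 ± 53.6 CPM in control and 149.9 ± 37.5 CPM in Ybx1-KO NPCs (SD, n = 3 each), a 1.99-fold difference. The log2 fold change was -0.99 (SE 0.427, 95% interval -1.89 to -0.091), which did not pass after adjustment over all genes (unadjusted p = 0.0329, adjusted p = 0.444, edgeR's quasi-likelihood test). A two-sided exact permutation test gave p = 0.1, the smallest that 3 against 3 libraries allow. Without Ybx1-KO 3 the value was -0.78 (unadjusted p = 0.0673 in edgeR's test, which is above the threshold). With libraries of a shared title number summed it was -1.13 (unadjusted p = 0.144 in edgeR's test).

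Dcx, or doublecortin, is the microtubule-binding protein used to mark migrating young neurons (chrX:143855842-143933311, minus strand). It was at 1248, 1555 and 832 CPM in the controls and at 848, 892.5 and 276 CPM in the Ybx1-KO libraries. Control 3 fell within the range of the knockouts, while controls 1 and 2 were above all of them. The means were 1212 ± 363 CPM and 672 ± 344 CPM (SD, n = 3 each). The log2 fold change was -0.85 (SE 0.568, 95% interval -2.05 to 0.35, adjusted p = 0.499 in edgeR's test) and was -0.46 without Ybx1-KO 3.

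Among the structural proteins, Map1b, an early axonal protein (chr13:99421446-99516540, minus strand), was at 1730, 3340 and 1678 CPM in the controls and at 2394, 2931 and 1094 CPM in Ybx1-KO 1 to 3. Its groups were interleaved, with control 2 the highest and Ybx1-KO 3 the lowest. The means of 2249 ± 945 and 2139 ± 945 CPM (SD, n = 3 each) nearly coincided, with a log2 fold change of -0.072 (SE 0.619). The interval of that value, -1.38 to 1.24, leaves room for more than a 2-fold difference in either direction.

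Map2, which binds microtubules in dendrites and cell bodies (chr1:66175273-66442583, plus strand), was at 706, 1215 and 527 CPM in the controls and at 450.3, 619.8 and 258 CPM in the Ybx1-KO libraries. Control 3 lay below Ybx1-KO 2, and the other controls were above every knockout library. Its means were 816 ± 357 and 443 ± 181 CPM (SD, n = 3 each), and the log2 fold change was -0.88 (SE 0.528, 95% interval -2.0 to 0.23, adjusted p = 0.467 in edgeR's test). Without Ybx1-KO 3 it was -0.59.

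Mapt, or tau (chr11:104231390-104332090, plus strand), was at 118, 251 and 285 CPM in the controls and at 226, 125 and 61.0 CPM in the Ybx1-KO libraries. Here control 1 was low, under 2 of the 3 knockout libraries, in contrast to its place for Dcx and Map2. The log2 fold change of -0.66 (SE 0.508, 95% interval -1.74 to 0.41, adjusted p = 0.535 in edgeR's test) became -0.29 without Ybx1-KO 3 and -1.28 without Ybx1-KO 1.

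The stathmins showed another pattern of libraries. Stmn1, the broadly expressed member (chr4:134468320-134473843, plus strand), was at 455, 368 and 599 CPM in the controls and at 1036, 419 and 236 CPM in the Ybx1-KO libraries. The highest and the lowest of all 6 values were both knockouts, and the 3 controls lay between them. Its log2 fold change was 0.25 (SE 0.552, 95% interval -0.92 to 1.42), or 0.64 without Ybx1-KO 3 and -0.59 without Ybx1-KO 1.

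Stmn2, also called SCG10 and found in growth cones (chr3:8509360-8561606, plus strand), was at 294, 435 and 589.6 CPM in the controls and at 601, 396 and 223 CPM in the Ybx1-KO libraries. Stmn3, a further neuronal stathmin (chr2:181306459-181314500, minus strand), was at 97.5, 85.4 and 192 CPM in the controls and at 193, 70.2 and 82.5 CPM in the Ybx1-KO libraries. Control 3 and Ybx1-KO 1 were the highest libraries for both genes. In CPM, Stmn3 was the only one of the 10 genes whose lowest library was Ybx1-KO 2. The log2 fold changes were -0.11 (SE 0.499, 95% interval -1.17 to 0.94) for Stmn2 and -0.12 (SE 0.475, 95% interval -1.12 to 0.89) for Stmn3, both smaller than their standard errors.

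Gap43 (chr16:42248442-42340651, minus strand) was at 164, 169 and 223 CPM in the controls and at 211, 124 and 74.5 CPM in the Ybx1-KO libraries. Ybx1-KO 1 lay among the controls and the other knockouts below them. Its log2 fold change was -0.44 (SE 0.447, 95% interval -1.39 to 0.50, adjusted p = 0.646 in edgeR's test), and it was -0.13 without Ybx1-KO 3 and -0.96 without Ybx1-KO 1.

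Crmp1 (chr5:37241940-37292133, plus strand) was at 355, 527 and 400.4 CPM in the controls and at 728, 348 and 172 CPM in the Ybx1-KO libraries. As for Stmn1, both extremes were knockouts. Its log2 fold change was -0.039 (SE 0.530, 95% interval -1.16 to 1.08).

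**Figure D2:**
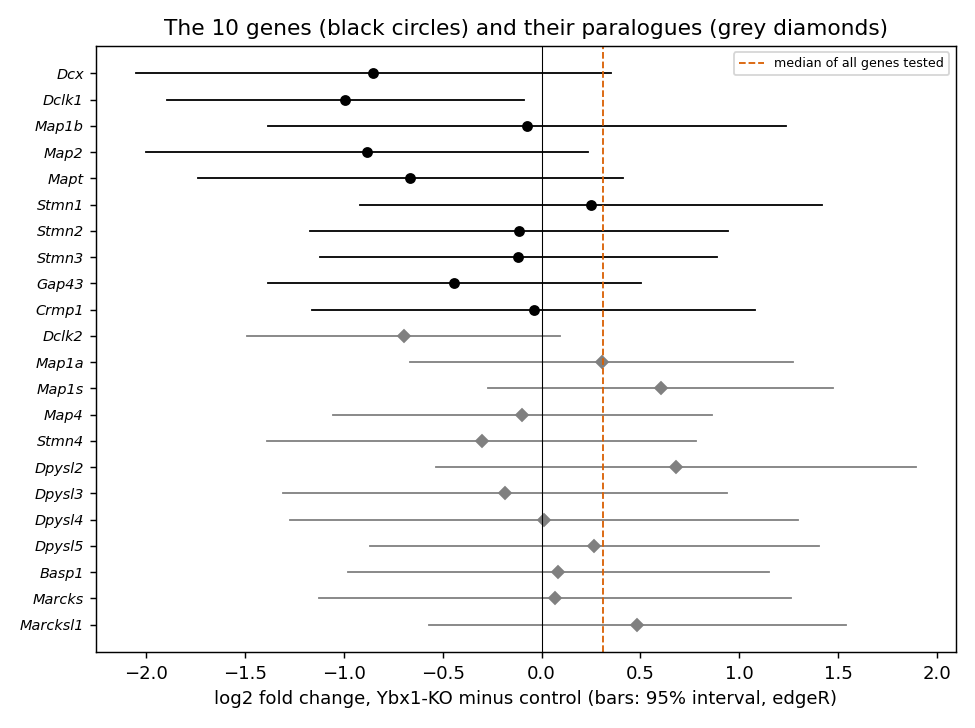
Log2 fold change of Ybx1-KO against control NPCs with its 95% interval from edgeR's quasi-likelihood test, for the 10 genes (black) and 12 paralogues (grey), with the median of all genes tested dashed. The interval of Dclk1, -1.89 to -0.091, is the one that leaves out 0, and 9 of the 10 black points are below 0.

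The libraries did not rank alike across the set. In TMM-normalized CPM Ybx1-KO 3 was the lowest for 9 of the 10 genes, against 19.6% of all genes tested and 62.3% of those with at least 100 CPM. Control 2 was the highest library for 4 genes (Dcx, Dclk1, Map1b and Map2), Ybx1-KO 1 for another 4 (Stmn1, Stmn2, Stmn3 and Crmp1) and control 3 for Mapt and Gap43. The summed level of the 10 genes was 5445, 8305 and 5585 CPM in controls 1 to 3 and 6860, 6095 and 2583 CPM in Ybx1-KO 1 to 3. Ybx1-KO 1 and 2 thus lay within the range of the controls, and Ybx1-KO 3 lay far below every other library. The place of Ybx1-KO 3 depended on the scaling, its TMM factor being 1.57. In FPKM, without TMM, that library was the lowest for Dcx, Map2 and Mapt (12.01 against 12.03 in Ybx1-KO 2). Ybx1-KO 2 was then the lowest for Dclk1 (8.02 against 10.35 in Ybx1-KO 3), Stmn1, Stmn2, Stmn3, Gap43 and Crmp1. Control 3 was the lowest for Map1b.

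**Figure D3:**
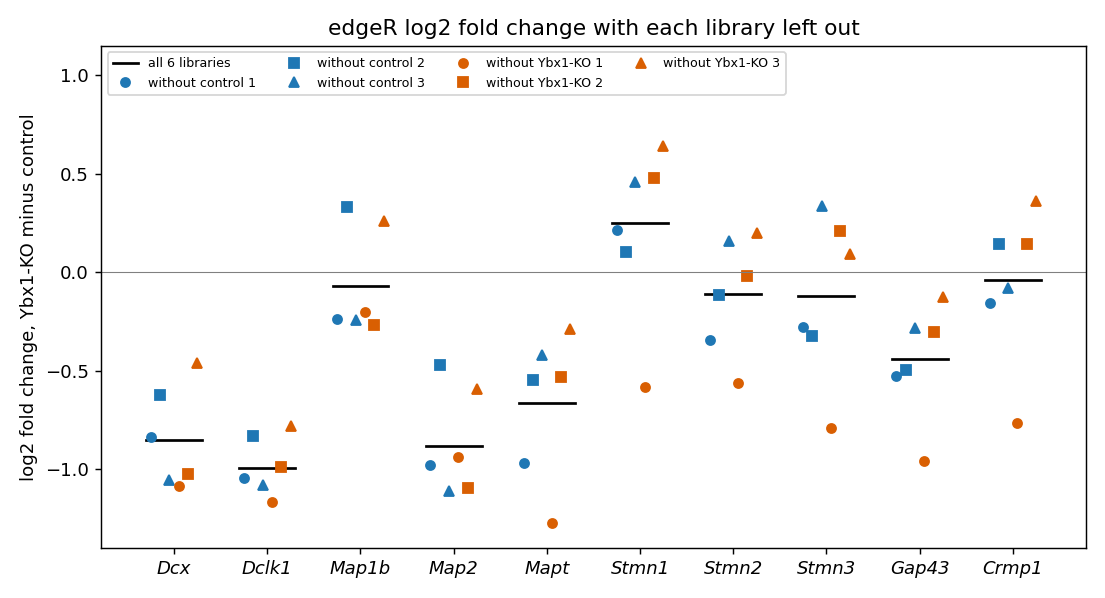
Log2 fold change of each gene from edgeR with all 6 libraries (bars) and with each library left out in turn (points, shape and colour giving the library left out). Dclk1 stays between -1.17 and -0.78, whereas Stmn1 runs from -0.59 without Ybx1-KO 1 to 0.64 without Ybx1-KO 3.

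Leaving out single libraries separated the genes further. Dclk1, Dcx, Map2, Mapt and Gap43 had a negative value whichever library was left out, with ranges of -1.17 to -0.78, -1.09 to -0.46, -1.11 to -0.47, -1.28 to -0.29 and -0.96 to -0.13. Map1b and the 3 stathmins changed sign, as did Crmp1, which ran from -0.77 without Ybx1-KO 1 to 0.36 without Ybx1-KO 3. Without Ybx1-KO 1 all 10 values were negative, and without Ybx1-KO 3 they were split evenly, 5 and 5.

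Levels between genes were compared per length, in FPKM. In control NPCs Stmn1 was the most abundant transcript of the set at 231 ± 56.7 FPKM (SD, n = 3), followed by Map1b at 131.5 ± 49.9, Gap43 at 113.5 ± 17.8, Stmn3 at 102.5 ± 45.9 and Dcx at 89.6 ± 26.2 FPKM. Stmn2 (72.7 ± 21.9), Crmp1 (56.4 ± 9.15), Map2 (46.1 ± 18.6), Mapt (26.65 ± 9.83) and Dclk1 (18.2 ± 2.80 FPKM) came after them, and the ranges of all neighbours in this order overlapped. In Ybx1-KO NPCs Stmn1 again came first at 300.2 ± 226 FPKM and Dclk1 last at 10.05 ± 1.89 FPKM. Dcx moved from the fifth to the seventh place, at 51.0 ± 18.7 FPKM. Neighbours without overlap there were Stmn1 and Map1b, Dcx and Map2, and Mapt and Dclk1. A description in FPKM uses each library's total on genes, without TMM.

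To see how the genes moved relative to one another within a library, the count of each was set against that of Map1b, the gene of the set with the most counts and with a fold change near 0. The choice of Map1b was made with these values in view. The separations below rest on that reference, and whether they hold with another long gene in its place was not tested. Dcx stood at 72.1, 46.6 and 49.6 counts per 100 Map1b counts in controls 1 to 3 and at 35.4, 30.5 and 25.2 in Ybx1-KO 1 to 3. Dclk1 stood at 16.0, 10.8 and 15.4 against 7.24, 5.79 and 9.76 counts per 100 Map1b counts. Map2 stood at 40.8, 36.4 and 31.4 against 18.8, 21.2 and 23.5. For these 3 genes every control was above every Ybx1-KO library, Ybx1-KO 3 included, and for Map2 that library was the nearest to the controls. The log2 differences were -0.87 (SE 0.243) for Dcx, -0.90 (SE 0.285) for Dclk1 and -0.77 (SE 0.144) for Map2, with p = 0.1 each in a two-sided exact permutation test, the smallest that 3 against 3 libraries allow.

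The other 6 genes overlapped between the groups on this scale. Mapt (-0.65), Gap43 (-0.44) and Crmp1 (-0.15) had negative log2 differences, and Stmn1 (0.12), Stmn2 (-0.056) and Stmn3 (-0.060) had values near 0. Over all genes tested, 1.78% were lower without overlap relative to Map1b, and among the 465 genes of at least 100 CPM in the longest 10% by exon length, which include Dcx, Dclk1 and Map2, the share was 8.60%.

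**Figure D4:**
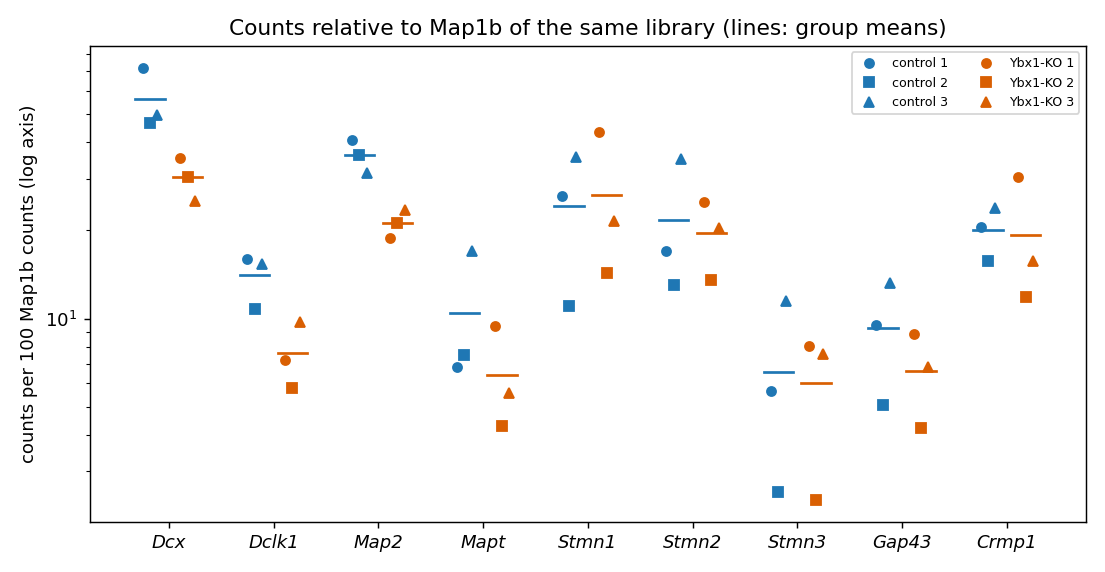
Counts of 9 genes per 100 Map1b counts of the same library, on a log axis, with control libraries in blue, Ybx1-KO libraries in orange and arithmetic group means as lines. The 3 Ybx1-KO points lie below the 3 control points for Dcx, Dclk1 and Map2, and the points of the other 6 genes are interleaved.

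The counts were also set against the sum of 18 young neuron markers (among them Tubb3, Elavl3, Nefl, Snap25 and Syt1), none of which is in the set. As a share of that sum Dclk1 stood at 12.55%, 8.17% and 7.69% in the controls and at 3.83%, 4.39% and 5.95% in the Ybx1-KO libraries. Dcx stood at 56.5%, 35.35% and 24.8% against 18.7%, 23.1% and 15.4%, and Mapt at 5.33%, 5.70% and 8.49% against 5.00%, 3.24% and 3.40%. All 3 genes were lower in every Ybx1-KO library than in every control, against 2.83% of all genes tested. The share among long genes of at least 100 CPM was not computed on this scale. Dcx and Dclk1 have 12647 and 15296 exon bases, against a median of 5402 over the markers. Their place on this scale can thus carry a trend on exon length, which was not tested. The log2 differences were -0.99 (SE 0.292) for Dclk1, -0.97 (SE 0.384) for Dcx and -0.74 (SE 0.288) for Mapt, with p = 0.1 each in a two-sided exact permutation test. Map2 (-0.86) overlapped, because control 3, at 15.7%, lay below Ybx1-KO 2 at 16.0%. The markers had a median log2 fold change of 0.035, or 0.39 without Ybx1-KO 3. Their values ran from -1.77 to 1.51, positive for 10 and negative for 8, so the make-up of the sum differed between libraries. Within it Nefl was at 58.1, 385 and 88.5 CPM in controls 1 to 3 and at 492, 365 and 290 CPM in Ybx1-KO 1 to 3. Nefm was at 35.6, 218 and 57.4 against 479, 199 and 204 CPM. Whether the 3 genes stay without overlap when such markers are left out was not tested.

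Exon length moved with these differences. Dcx, Dclk1, Map1b and Map2 have between 12647 and 16449 exon bases and belong to the longest 10% of genes tested (8365 bases or more), whereas Stmn1, Gap43 and Stmn3 have 1922, 1523 and 1136. In that longest class the median gene deviated from its mean over the 6 libraries by 0.20, 0.40 and -0.14 on the log2 scale in controls 1 to 3 and by -0.25, 0.099 and -0.31 in Ybx1-KO 1 to 3. The median log2 fold change of that class was -0.25, against 0.62 in genes of 1158 to 1916 bases. Among genes with a mean log2 CPM above 3, the range that holds all 10 genes, these medians were -0.27 and 0.083. Across genes, which are not independent replicates, Spearman's rho of exon length with log2 fold change was -0.427 over all tested, -0.203 over the 9962 with a mean log2 CPM above 3 and -0.467 over the 10 genes.

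Offsets were then fitted to each library's trend on exon length among genes with a mean log2 CPM above 3. Over all genes they left part of the trend, with medians of 0.58 in genes of 1158 to 1916 bases and 0.046 in the longest class. With these offsets Dclk1 had a log2 fold change of -0.62, Dcx of -0.53, Map2 of -0.47 and Gap43 of -0.62, and for none of the 10 genes was the unadjusted p of edgeR below 0.05. Map1b, of similar length to Dcx, Dclk1 and Map2, was at 0.31 with these offsets. The offsets depend on exon length alone, so genes of similar length received similar ones. The distance between Map1b and those 3 genes was therefore kept by construction and cannot test a part of exon length in it.

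**Figure D5:**
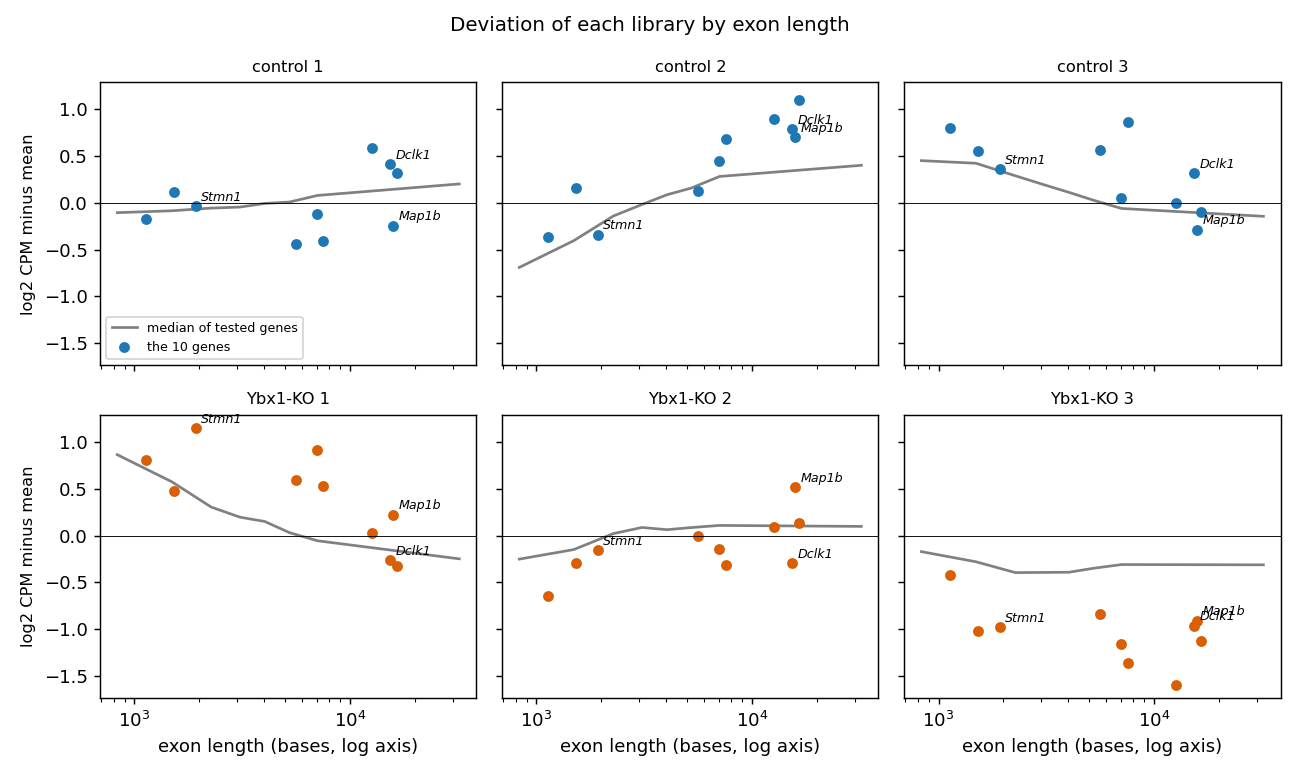
Deviation of log2 CPM from the mean of the 6 libraries against exon length (bases, log axis), 1 panel per library, for the 10 genes (points) and the median of tested genes in classes of length from 599 bases up (grey line, drawn at the geometric middle of each class). The line falls with length in control 3 and Ybx1-KO 1 and rises in control 2, and all 10 points of Ybx1-KO 3 lie below its line.

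The closest relatives of these genes were examined next. Of 13 paralogues 12 were tested, Dclk3 being too low, and 0 were called. Their log2 fold changes were positive for 8 and negative for 4, with a median of 0.076, or 0.44 without Ybx1-KO 3. Dclk2, the other doublecortin-like kinase, was at 91.9, 85.2 and 83.2 CPM in the controls and at 49.1, 70.3 and 41.1 CPM in the Ybx1-KO libraries, with no overlap between the groups. Its log2 fold change was -0.70 (SE 0.375, adjusted p = 0.450 in edgeR's test), and without Ybx1-KO 3 it was -0.53. It was the one paralogue without overlap, against 8.16% of all genes tested.

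Among the other structural proteins Map1a had a log2 fold change of 0.30, Map1s of 0.60 and Map4 of -0.097. Stmn4, a brain stathmin, had -0.30. The relatives of Crmp1 were at 0.68 (Dpysl2), -0.18 (Dpysl3), 0.014 (Dpysl4) and 0.27 (Dpysl5). Basp1, Marcks and Marcksl1, membrane proteins that like Gap43 bind calmodulin and phosphoinositides, were at 0.085, 0.068 and 0.48. For none of these values was the unadjusted p of edgeR below 0.05.

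Further genes that act on microtubules were taken from 5 lists, and 0 of their genes were called. Over all genes tested 6.96% were higher and 4.26% lower at an unadjusted p below 0.05, and 4.99% were higher and 8.16% lower without overlap. Of 24 other microtubule-binding proteins 1 was higher and 2 lower at an unadjusted p below 0.05, with a median log2 fold change of -0.28 (-0.096 without Ybx1-KO 3). Map9, a microtubule-binding protein of spindle and cilia, was at 79.3, 50.4 and 73.8 CPM in the controls against 20.4, 30.7 and 16.8 CPM (log2 fold change -1.58, SE 0.393, adjusted p = 0.262 in edgeR's test). Tppp3, a tubulin polymerization promoting protein, lay the other way, at 9.88, 17.0 and 17.2 against 57.0, 31.9 and 31.3 CPM (1.45, SE 0.412). Neither gene overlapped between the groups.

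Of 20 kinesin and dynein transport genes 0 were higher and 1 lower at that threshold (median -0.33, or -0.11 without Ybx1-KO 3), and 4 were lower without overlap. The kinesin-2 motors Kif3a (-0.93, SE 0.376) and Kif3b (-0.68, SE 0.364) had the smallest p-values. Of 17 genes for tubulin severing and modification 0 were higher and 1 lower (median -0.021, or 0.13 without Ybx1-KO 3), led by the severing enzyme Spast at 214, 240.1 and 176 against 103, 129 and 71.9 CPM (-1.05, SE 0.413) and the tubulin tyrosine ligase Ttl (-0.89, SE 0.426). Of 15 kinases of microtubule proteins 1 was higher and 1 lower (median -0.15, or 0.025 without Ybx1-KO 3), namely Cdk5r2, an activator of Cdk5, at 1.70 (SE 0.596) with overlapping groups, and Mark1, a kinase of tau and other microtubule-associated proteins, at -0.94 (SE 0.387) without overlap.

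Of 20 other growth cone genes 0 were higher and 2 lower at an unadjusted p below 0.05 (median -0.27, or 0.039 without Ybx1-KO 3). Shtn1, or shootin-1, which links actin flow to adhesion in the growth cone, was at 53.7, 20.1 and 54.4 CPM in the controls and at 2.50, 7.37 and 8.38 CPM in Ybx1-KO 1 to 3. Its controls were all above its knockouts by 2-fold or more, and the log2 fold change was -2.82 (SE 0.525, adjusted p = 0.167 in edgeR's test). Nrn1, or neuritin, had -0.86 (SE 0.405), also without overlap.

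Markers of the cell types in the sample were set beside these values. Shares over all genes tested were 6.96% higher and 4.26% lower at an unadjusted p below 0.05. Without overlap they were 4.99% higher and 8.16% lower. Of 18 young neuron markers 2 were higher and 3 lower at an unadjusted p below 0.05, and their summed level was 2210 to 4400 CPM in the controls and 1793 to 4529 CPM in the Ybx1-KO libraries. Tubb3 had a log2 fold change of 0.026 (SE 0.548), whereas Myt1l (-1.77, SE 0.434) and Snap25 (-1.28, SE 0.401), a proneuronal transcription factor and a synaptic fusion protein, were lower without overlap. The 2 higher markers were Nhlh1 (1.28, SE 0.479) and Nefm (1.51, SE 0.609), with overlapping groups. The log2 fold change was positive for 10 of the 18 markers and negative for 8. Of 15 progenitor markers 5 were higher and 1 lower (summed 1967 to 2203 CPM in the controls and 1587 to 2688 CPM in the Ybx1-KO libraries). Sox2 had -0.0054 (SE 0.436), the glutamate transporter Slc1a3 -1.78 (SE 0.424) and the intermediate filament Nes 1.44 (SE 0.455). Of 14 cycling cell markers 4 were higher and 0 lower, summing to 870 to 1281 and 1109 to 1536 CPM.

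Markers of other cell types were also present. Their counts are given at the same unadjusted p below 0.05, against 6.96% higher and 4.26% lower over all genes tested. Mesenchyme markers (0 higher, 6 lower of 10) summed to 178 to 944 CPM in the controls, the highest being control 1, and to 98.3 to 166 CPM in the Ybx1-KO libraries. Neural crest and Schwann markers (4 higher, 0 lower of 7) summed to 51.3 to 149.6 and 115 to 354 CPM, and erythroid markers (1 higher, 3 lower of 10) to 525 to 1228 and 214 to 1245 CPM. Endothelial markers (4 of 8 tested, 0 higher or lower) summed to 25.6 to 56.7 and 19.2 to 68.3 CPM, with Emcn at 0 counts in Ybx1-KO 2. Microglia markers (5 of 8 tested, 0 higher, 1 lower) summed to 14.2 to 50.3 and 6.01 to 55.3 CPM, with C1qb at 0 counts in Ybx1-KO 1 and 2. The part of cell composition in the values of the 10 genes was not tested.

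The genes whose pattern over the 6 libraries was most like the mean standardised pattern of the set were Ubl3 (Pearson's r = 0.996), Mmgt1 (0.992), Gnb1 (0.990), Kbtbd2 (0.989) and Ids (0.988). They were taken from 6782 candidates with a mean of at least 20 CPM, of which 194 had an r above 0.9, and are given as a description over 6 libraries, in which Ybx1-KO 3 had the lowest mean pattern. The log2 fold changes of these 5 genes lay between -0.40 and -0.11.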

How the data were processed

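The authors mapped the read pairs of stranded total RNA libraries, counted them on genes with HTSeq 0.6.1p1 and deposited raw counts per gene symbol, 1 table per library, without normalization or pooling. The submitters' processing notes name GRCm38.p5, the aligner and the strand setting being not given in the sources used here, so counts of overlapping genes (3.43% of the exon bases of Stmn1, under 1% in Dclk1 and Map2) are uncertain. The counter's own tallies were left out of library sizes. Exon lengths and coordinates came from GENCODE M21 (GRCm38), where 47624 of 51733 symbols matched by symbol, 359 by an older one and 3750 not.

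Counts were normalized by TMM (factors 0.727 to 1.57) and tested with edgeR 4.0.16 in R 4.3.3 (quasi-likelihood test, no covariate, Benjamini-Hochberg adjustment) over the 21330 genes whose mean FPKM in control or in Ybx1-KO exceeded 1. Calls needed a fold change above 1.5 at an adjusted p below 0.05, and the shared coefficient of biological variation was 0.800. The study's own test, limma-voom (limma 3.58.1), was run as an alternative, as were DESeq2 1.42.0, other scalings and filters, robust dispersion, removal of the 20 most abundant genes and leaving out libraries. SE is the log2 fold change over the square root of F. Between any 2 libraries the chi-square per degree of freedom was at least 58.9, so none was a second copy. Limits on counts cover counting error only, since the reads carry no molecular identifiers.

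The 10 genes and all lists were chosen with earlier results of these data known. Genes named were the 10 members, 13 paralogues, the 2 with the smallest unadjusted p in each other microtubule or growth cone list and in the neuron and progenitor lists, Tubb3, Sox2, Ybx1 and the 5 most similar genes. Dclk3, the paralogue left untested, had at most 2.27 CPM. Emcn, C1qb, Elavl3, Nefl, Nefm, Nhlh1 and Syt1 are named outside this rule. Plots used matplotlib 3.10.9.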

Additional observations from a re-analysis of the deposited data

How the results depend on the processing

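Depth of the Ybx1-KO libraries and the spread between libraries limit every value here. Under all alternatives run, 0 of the 10 genes were called. Dclk1 kept a negative log2 fold change under all 23 alternatives (-1.17 to -0.62) and had no overlap between groups in all 24 settings. These settings are not separate checks of overlap. Leaving out a library can hardly bring overlap where there was none, and limma-voom and robust dispersion used the same CPM as the main test. The unadjusted p of Dclk1 was below 0.05 in 14 of the 24 settings, and its smallest adjusted p was 0.0793 (DESeq2). Calls over all genes were 0 in the main edgeR test, with 1484 higher and 909 lower at an unadjusted p below 0.05, and 99 higher and 81 lower in DESeq2, 113 and 80 without a filter, 531 and 165 without Ybx1-KO 1, 730 and 216 without Ybx1-KO 2, 29 and 44 without control 2, and 139 and 68 with libraries summed by the first number of their titles. On the genes tested in all 6 libraries, leaving out Ybx1-KO 1, 2 or 3 gave 79 and 28, 283 and 137, or 27 and 19. No paired analysis was possible because the titles of the groups share no first number, and of the last numbers they share 1 value alone, which 2 controls and 1 Ybx1-KO library carry. The cause of the changes below was not tested.

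Members lower at an unadjusted p below 0.05 numbered 2 in DESeq2 and 0 without a filter, with summed libraries and with length offsets, against 1 (0 to 2 with 1 library left out, 0 without control 1, control 2 or Ybx1-KO 3). Members lower without overlap numbered 2 with total count scaling, 3 with summed libraries and 2 with length offsets, against 1 (1 to 4 with 1 library left out, 4 without Ybx1-KO 1). Positive log2 fold changes numbered 2 with RLE scaling, DESeq2 and the 20 most abundant genes removed, 3 with length offsets and the CPM filter, 5 with total count scaling and 0 with summed libraries, against 1 (0 to 5 with 1 library left out). Negative ones numbered 5 with total count scaling, against 9 (5 to 10 with 1 library left out). The median of the members ran from -0.87 without Ybx1-KO 1 to -0.016 without Ybx1-KO 3. The median of all genes moved from 0.31 to 0.53 with total count scaling, to 0.15 in limma-voom and to 0.075 with the CPM filter.

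Signs turned for Map1b with total count scaling (0.0090), the CPM filter (0.0086) and length offsets (0.31), and for Crmp1 with RLE scaling (0.025), total count scaling (0.094), DESeq2 (0.025), the CPM filter (0.045), the 20 most abundant genes removed (0.0051) and length offsets (0.13). With total count scaling Stmn2 was at 0.039, Stmn3 at 0.12, Map4 at 0.015 and Dpysl4 at -0.051. Map4 was at 0.23 with length offsets. In limma-voom Dpysl4 was at -0.16 and Basp1 at -0.033, and without a filter Dpysl4 was at -0.053 and Marcks at -0.00083. With summed libraries Stmn1 was at -0.15, Dpysl4 at -0.14, Dpysl5 at -0.068, Basp1 at -0.29 and Marcks at -0.12. With 1 library left out, with the filter reapplied or on the genes tested in all 6, values ran from -0.37 to 0.33 for Map1b, -0.59 to 0.64 for Stmn1, -0.56 to 0.20 for Stmn2, -0.79 to 0.34 for Stmn3, -0.77 to 0.36 for Crmp1, -0.052 to 0.75 for Map1a, -0.39 to 0.16 for Map4, -1.06 to 0.37 for Stmn4, -0.20 to 1.10 for Dpysl2, -0.71 to 0.16 for Dpysl3, -1.25 to 0.78 for Dpysl4, -0.16 to 0.66 for Dpysl5, -0.32 to 0.44 for Basp1 and -0.41 to 0.58 for Marcks. Length offsets, leaving out libraries on the genes tested in all 6 and counts relative to Map1b were added after seeing the data. With the 20 most abundant genes removed Map1b had no value, being one of them.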
